A study of Arabidopsis thaliana with 15 samples.

Results

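AP2/ERF transcription factors are plant proteins that bind DNA through 1 or more AP2 domains, and this account covers 38 genes of that family in leaf 6 of *Arabidopsis*. The 38 genes were picked by gene ID from 32833 genes in the expression table, as the ERF, DREB/CBF, *ORA47*, *ORA59*, RAP2 and RAV genes. They were picked with earlier results of these data known, so the choice was not blind to their levels. They fell into 7 roles: 5 DREB1 genes, 4 other DREB genes, 12 ERF group IX genes, 6 group VIII genes, 5 group X genes, 3 group VII genes and 3 RAV genes. A gene counted as expressed at 1 FPKM (fragments scaled by transcript length and by the number of mapped fragments) or more in at least 3 of the 15 libraries, and 23 of the 38 members were expressed and tested.

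The libraries formed 5 groups of 3, all from WT plants of accession Col-0, aged 22 to 24 days and grown on MS medium at 22 °C in 10 h light and 14 h dark. In the GSH and Glu groups, leaf 1 had received 100 mM glutathione (GSH, a tripeptide) or 100 mM glutamate (Glu, an amino acid), and the distal leaf 6 was taken 1 h later. In the wounding group, leaf 1 was wounded and leaf 6 was taken 1 h later. The mock group is labelled as given no small molecule, and the wounding mock group as taken before wounding. In the study's procedure for gene expression, leaf 1 was cut 5 h before a molecule was applied, and the labels give no group that received solution without a molecule, so the effects of the molecule, the cut and the application cannot be told apart. The sample tags mark the mock libraries as a starting time point and the GSH and Glu libraries as 1 h. The time of sampling therefore cannot be told apart from these effects either. The hour between the wounding mock and wounding samples likewise cannot be told apart from the wound. The labels do not say whether replicates came from separate plants, so p-values measure the spread between these libraries.

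Members of the ERF and DREB branches carry a single AP2 domain, and RAV proteins carry an AP2 and a B3 domain. In leaves they are known as the transcriptional end of several stress pathways. Group IX activators and group VIII repressors act on ethylene and jasmonate responses through the GCC box, and DREB factors act on cold and drought genes through the dehydration-responsive element. Group VII factors are stabilised when oxygen is low, and RAV factors restrain growth and flowering.

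Wounding raised 5 members that share a sequence feature, and of these 3 were also raised DEGs after GSH and 1 after Glu. The 250 bases before the annotated start of *RAP2.6*, *ERF4*, *ERF109*, *ERF1A* and *ERF2* each hold the G-box CACGTG, the palindrome that *MYC2* and other bHLH factors bind. The 5 windows are printed here with that of *ERF13*, a wound-raised member whose window lacks the motif, so that the position of the G-box in each can be seen. All are from RefSeq (TAIR10.1), 5′ to 3′ on the strand of the gene, and capitals mark the G-box and the W-box core TTGAC, or GTCAA where the core lies on the other strand.
RAP2.6: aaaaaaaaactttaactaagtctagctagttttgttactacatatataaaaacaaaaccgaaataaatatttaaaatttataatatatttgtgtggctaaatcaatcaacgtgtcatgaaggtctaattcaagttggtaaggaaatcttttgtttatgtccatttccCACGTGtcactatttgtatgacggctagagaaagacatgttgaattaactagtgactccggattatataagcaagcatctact
ERF4: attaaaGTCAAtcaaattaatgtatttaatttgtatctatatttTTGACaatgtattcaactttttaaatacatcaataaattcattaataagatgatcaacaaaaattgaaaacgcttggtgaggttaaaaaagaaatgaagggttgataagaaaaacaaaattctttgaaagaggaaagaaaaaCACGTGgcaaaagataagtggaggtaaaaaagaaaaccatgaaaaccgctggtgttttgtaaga
ERF109: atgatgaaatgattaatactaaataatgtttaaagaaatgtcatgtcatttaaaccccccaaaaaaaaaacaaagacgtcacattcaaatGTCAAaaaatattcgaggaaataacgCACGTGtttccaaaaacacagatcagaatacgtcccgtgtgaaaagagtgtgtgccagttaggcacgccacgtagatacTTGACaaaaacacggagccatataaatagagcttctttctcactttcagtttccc
ERF1A: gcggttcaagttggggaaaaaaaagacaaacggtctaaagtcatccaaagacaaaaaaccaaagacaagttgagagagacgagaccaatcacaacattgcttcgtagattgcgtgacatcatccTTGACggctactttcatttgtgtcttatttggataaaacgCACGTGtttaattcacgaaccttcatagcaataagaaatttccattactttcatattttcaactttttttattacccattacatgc
ERF2: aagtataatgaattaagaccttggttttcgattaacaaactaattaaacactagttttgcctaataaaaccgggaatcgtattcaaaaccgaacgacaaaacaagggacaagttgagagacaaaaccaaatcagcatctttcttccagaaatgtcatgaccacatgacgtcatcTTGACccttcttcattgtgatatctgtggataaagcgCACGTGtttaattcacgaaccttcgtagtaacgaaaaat
ERF13: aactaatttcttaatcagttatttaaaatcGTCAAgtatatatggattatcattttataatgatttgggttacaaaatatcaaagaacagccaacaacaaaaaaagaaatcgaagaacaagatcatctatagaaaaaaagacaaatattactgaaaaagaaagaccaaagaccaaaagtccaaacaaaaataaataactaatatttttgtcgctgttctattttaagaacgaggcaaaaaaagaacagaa
The windows lie at chr1:16263555-16263804 (*RAP2.6*), chr3:5121053-5121302 (*ERF4*), chr4:16451626-16451875 (*ERF109*), chr4:9758953-9759202 (*ERF1A*), chr5:19172957-19173206 (*ERF2*, minus strand) and chr2:18494965-18495214 (*ERF13*). No other annotated gene lies in these windows. The G-box begins 39 bases before the start of *ERF2*, 64 before *ERF4*, 83 before *RAP2.6*, 86 before *ERF1A* and 134 before *ERF109*. The windows of *ERF1A* and *ERF2*, on different chromosomes, share an identical run of 26 bases that contains it, cgCACGTGtttaattcacgaaccttc.

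Among the 23 tested members, these 5 were the ones with a G-box in the window, or 21.7%. They made up 5 of the 6 members that were DEGs (adjusted p under 0.05 and absolute log2 fold change above 1) with a higher level after wounding, a call made for 5.06% of all genes tested, and none of the other 17 tested members held the motif. Of the 15 members that were not expressed, 5 also held it (*CBF2*, *ORA59*, *ERF95*, *ERF98* and *ERF12*), so that the motif also occurred before members below the expression filter. For scale, a G-box occurred in 6.49% of the 27443 windows of protein-coding genes, in 7.53% of the 16886 windows of genes tested, in 14.9% of the 870 windows of genes that were DEGs with higher levels after wounding, and in 6.28% of the 446 windows of DEGs with lower levels. The motif was not limited to the wounding calls. It lay before 3 of 3 members that were DEGs with higher levels after GSH, and before 1 of 1 after Glu. Among all genes that were DEGs with higher levels, the shares were 12.6% of 206 windows after GSH and 12.7% of 197 after Glu. The windows were searched with the calls known, so the match between motif and call is a description and was not tested. *ERF109*, which holds the motif, and *ERF13*, which lacks it, passed the expression filter only with the wounding libraries. *RAP2.6* passed it only through treated libraries, so the counts among tested members are not independent of the levels after treatment.

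The W-box core TTGAC, a site of WRKY factors, also lay before 5 of these 6 members (*ERF4*, *ERF109*, *ERF1A*, *ERF2* and *ERF13*) and before 4 of the other 17 tested members (23.5%), which were *ERF5*, *ERF3*, *RAV1* and *TEM2*. It was a common motif, in 16 of 38 member windows (42.1%), in 44.9% of all windows and in 47.4% of those of genes that were DEGs with higher levels after wounding. This division was not tested either, and *ERF109* and *ERF13* entered it only through the wounding libraries. The DRE core CCGAC occurred in 4 member windows (10.5%) against 12%. The GCC box GCCGCC occurred in 2 member windows (5.26%) against 1.87%, and the rapid stress response element CGCGTT in 2 (5.26%) against 2.59%, in each case in members that were not expressed. All were searched on both strands, and a motif that is not in these letters may lie elsewhere.

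Levels of the members set them apart before any treatment was considered. The 3 group VII genes and *ERF3* stood at 14.4 FPKM or more in all 15 libraries, whereas *RAP2.6* was listed at 0 in all 6 untreated libraries. Across libraries, group VII levels ran from 17.1 to 33.1 FPKM for *RAP2.3*, from 21.8 to 40.5 FPKM for *RAP2.12* and from 20.4 to 30.0 FPKM for *RAP2.2*. The 15 members that were not expressed did not exceed 1.64 FPKM in any library. They were *CBF1* (AT4G25490), *CBF2* (AT4G25470), *DDF1* (AT1G12610), *DDF2* (AT1G63030), *DREB26* (AT1G21910), *ORA59* (AT1G06160), *ERF1* (AT3G23240), *ERF95* (AT3G23220), *ERF98* (AT3G23230), *ERF105* (AT5G51190), *ERF11* (AT1G28370), *ERF12* (AT1G28360), *ERF112* (AT2G33710), *ERF115* (AT5G07310) and *RAP2.6L* (AT5G13330), and *DDF2* and *ERF95* were listed at 0 in every library. As FPKM carries no read depth, a value of 0 does not show that a gene is silent.

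**Figure D1:**
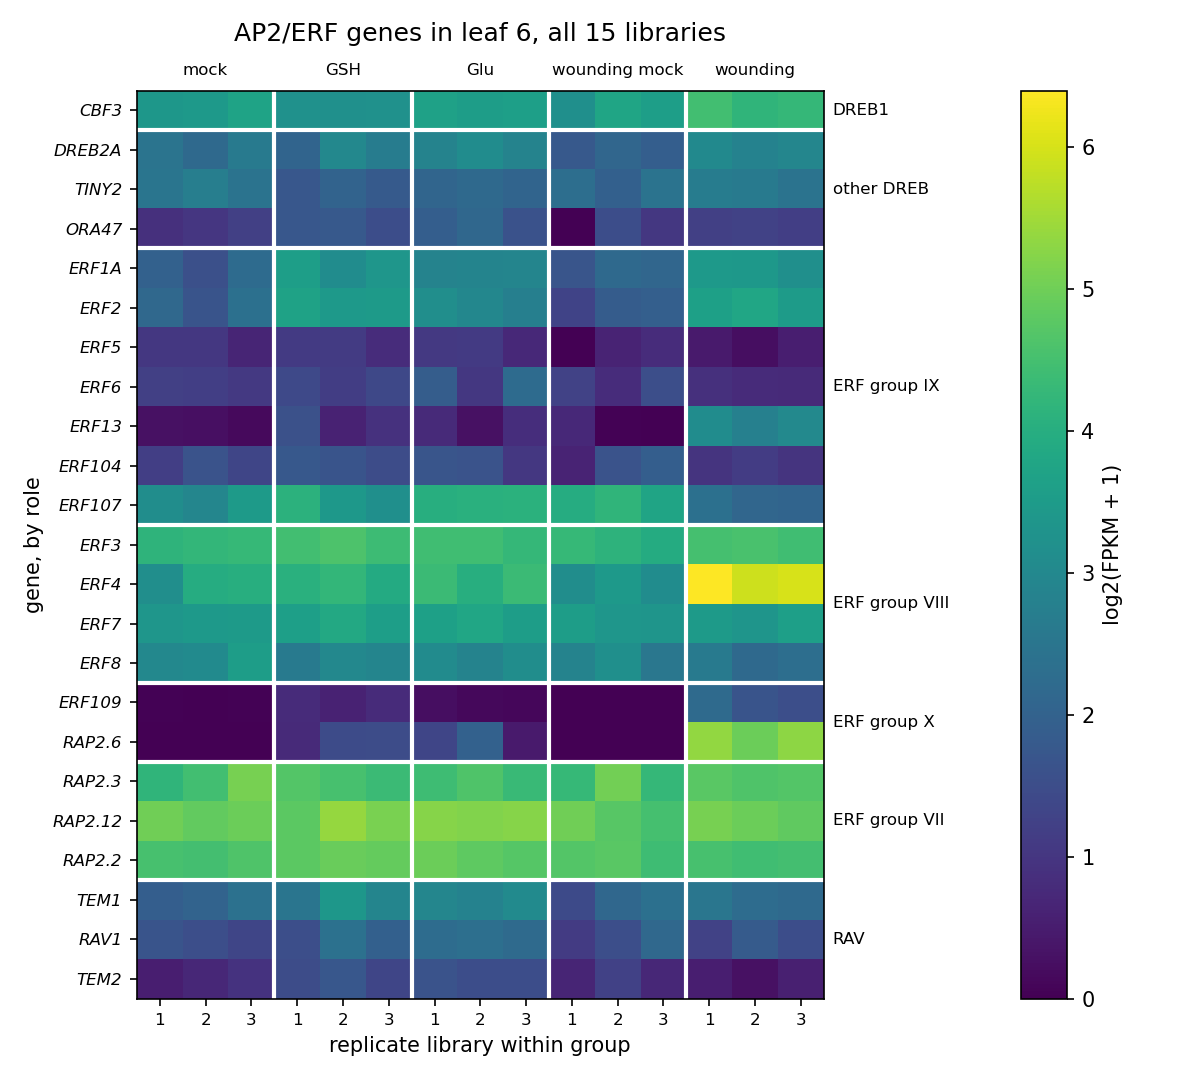
Levels of the 23 expressed AP2/ERF genes (rows, by role) in the 15 libraries (columns, 3 for each group) as log2(FPKM + 1), from dark (0) to yellow (high). *RAP2.6*, at 0 FPKM in the 6 untreated libraries, and *ERF4*, at 59.3 to 83.3 FPKM after wounding, stand out in the wounding columns, and the 3 group VII rows are bright throughout.

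Sample facts that bear on these values are few. In 14 libraries 21090 to 21750 genes were detected above 0 FPKM, against 18664 in wounding mock replicate 1, in which 23 of the 38 members were above 0. Correlations of log2(FPKM + 1) between replicates were 0.950 or higher. Markers of leaf mesophyll were abundant in all groups, with the Rubisco subunit gene *RBCS1A* between 8090 and 12000 FPKM, and none of 7 markers of flower, seed, root or senescence was expressed. Fewer cells of a type and less RNA per cell cannot be told apart in such bulk samples.

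Wounding gave the most DEGs among these genes, with raised DEGs in groups VIII, IX and X and 1 lowered DEG in group IX. By the adjusted p alone, members were raised in 5 of the 7 roles. Of the 23 members tested, 8 rose and 1 fell at an adjusted p under 0.05 (limma, log2(FPKM + 1), Benjamini-Hochberg over all genes tested), and 6 and 1 of them were DEGs. Over all genes tested, 8.30% rose and 10.3% fell, and 5.06% and 2.63% were DEGs. *ERF109* and *ERF13* reached the expression filter only with the help of the wounding libraries, so their presence among the 6 is not independent of their level there. *RAP2.6*, also among the 6, reached it only through treated libraries. The median log2 fold change was 0.34 for the tested members and -0.08 for all genes tested. Leaving out wounding mock replicate 1, or any other single library, left 7 or 8 DEGs.

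GSH raised 6 members, among them the group IX activators *ERF1A* and *ERF2*, and lowered 1. Over all genes tested, 3.92% rose and 0.535% fell. *ERF1A*, *ERF2* and *RAP2.6* were DEGs, where 1.19% of all genes tested were DEGs with a higher level. *RAP2.6*, *ERF109* and *TEM2*, among the 6, passed the expression filter only with the help of treated libraries. These counts are therefore not independent of that filter. The median log2 fold change was 0.32 for the members and 0.05 for all genes tested.

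Glu raised 10 members and lowered 1, mostly by small amounts. Over all genes tested, 6.81% rose and 2.83% fell. *RAP2.6* alone was a DEG, where 1.14% of all genes tested were DEGs with a higher level. *RAP2.6* and *TEM2* passed the expression filter only with the help of treated libraries, so their calls are not independent of that filter. The median log2 fold change was 0.40 for the members and 0.005 for all genes tested. The GSH and Glu comparisons share the 3 mock libraries, so they are not independent of each other, and their values are given side by side.

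Of the 23 tested members, 15 passed the test after at least 1 treatment, and 7 of them were DEGs, where 25.3% of all genes tested passed and 8.78% were DEGs. *ERF1A*, *ERF2* and *RAP2.6* rose after all 3 treatments, as did 1.31% of all genes tested. *RAP2.6* was tested only through treated libraries, at 1 FPKM or more in 2 GSH, 2 Glu and 3 wounding ones. The 8 members that passed after none were *ERF5*, *ERF6* and *ERF104* of group IX, *ERF3*, *ERF7* and *ERF8* of group VIII, and *RAP2.2* and *RAP2.3* of group VII. Treated and control libraries did not overlap in 60.9%, 69.6% and 47.8% of the tested members after GSH, Glu and wounding. Over all genes tested these shares were 26.4%, 31.9% and 38.3%, so a lack of overlap alone is common and is given as a description.

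**Figure D2:**
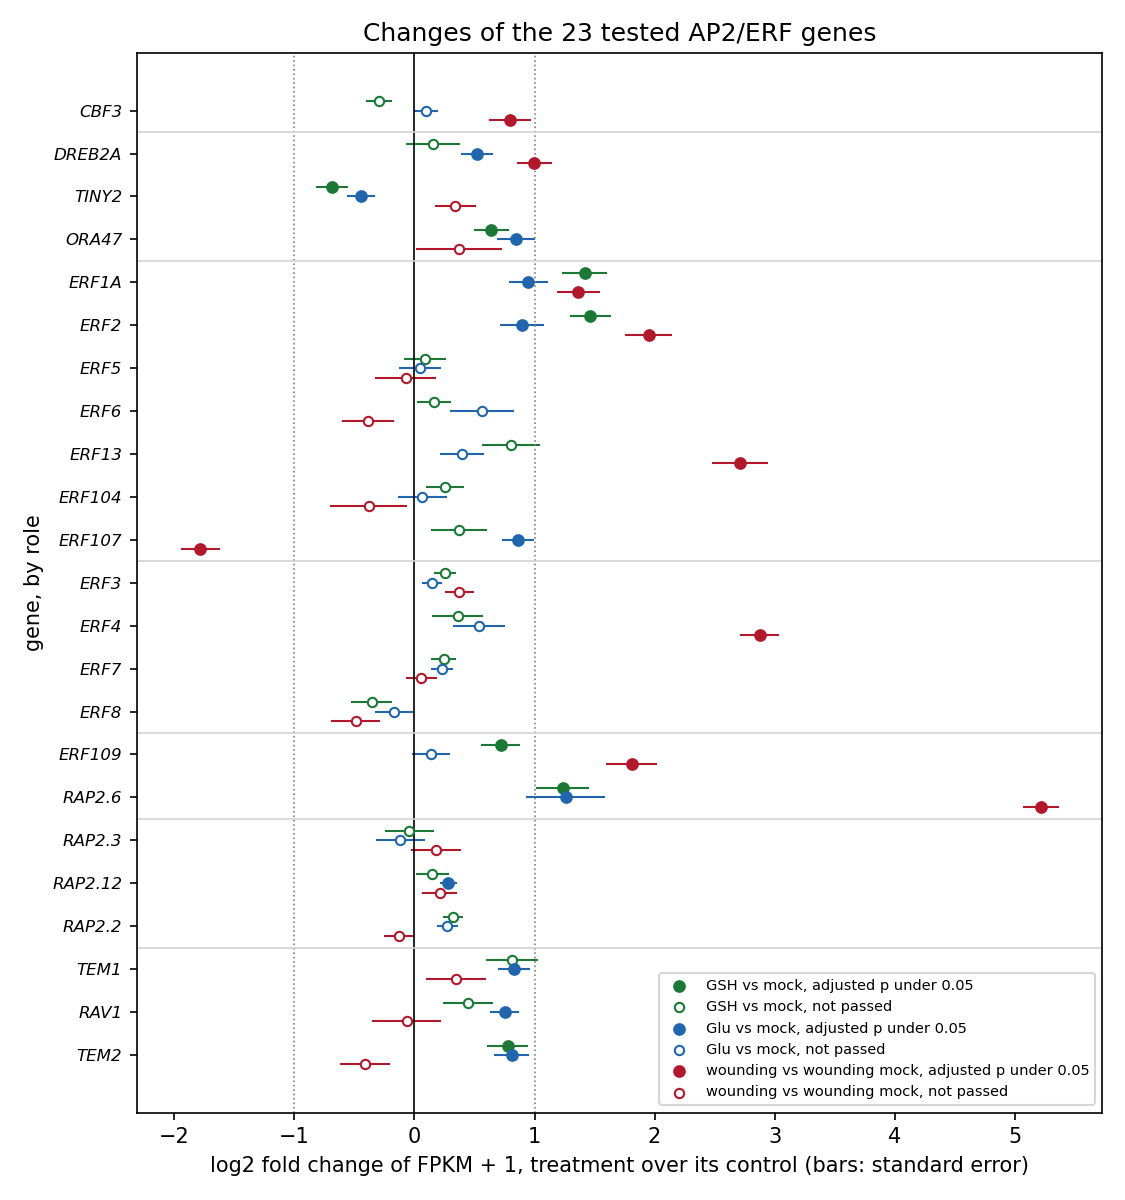
Log2 fold change of FPKM + 1 (horizontal axis, bars for the standard error) of the 23 tested AP2/ERF genes (rows, by role) after GSH, Glu and wounding, each against its own control with 3 libraries a group, with filled points where the adjusted p was under 0.05 and dotted lines at the DEG threshold. *RAP2.6* lies farthest to the right, at 5.22 after wounding, and *ERF107* farthest to the left, at -1.78 after wounding.

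Group X held the largest change among the 23 tested members. *RAP2.6* (AT1G43160), known to be induced by jasmonic and abscisic acid, was listed at 0 FPKM in every mock and wounding mock library. After wounding it reached 40.1, 30.3 and 38.9 FPKM, after GSH 0.68, 1.75 and 1.82 FPKM, and after Glu 1.51, 2.99 and 0.37 FPKM. All 9 treated libraries were thus above the untreated ones, and the lowest wounded library, at 30.3 FPKM, was far above the highest of the other treated libraries, at 2.99 FPKM.

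For *RAP2.6* the fitted log2 fold change was 5.22 ± 0.15 (SE) after wounding, with an adjusted p of 6.8e-07, 1.24 ± 0.22 after GSH (adjusted p = 0.019) and 1.26 ± 0.33 after Glu (adjusted p = 0.046). As the controls are listed at 0, these values depend on the addition of 1 FPKM and give no fold of the transcript: with 0.1 FPKM added they were 8.50, 3.82 and 3.73. The wounding call held without each library in turn. The GSH call was lost (adjusted p between 0.058 and 0.088) when a single mock library, whichever it was, or GSH replicate 2 or 3 was left out, and the Glu call (0.079 to 0.14) when a single mock library or Glu replicate 1 or 2 was left out. With no filter on low genes both calls missed the threshold (adjusted p = 0.075 and 0.13).

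*ERF109* (AT4G34410), also called *RRTF1*, is known for linking jasmonate to auxin synthesis and for promoting reactive oxygen species. It measured 3.66, 2.17 and 1.92 FPKM after wounding and at most 0.0044 FPKM in the wounding mock libraries. After GSH it measured 0.74, 0.54 and 0.73 FPKM, after Glu 0.17, 0.10 and 0.075 FPKM, and in the mock libraries at most 0.022 FPKM. The groups did not overlap in any of the 3 comparisons, and the order of the means was wounding, GSH, Glu.

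The log2 fold change of *ERF109* was 1.81 ± 0.21 after wounding (adjusted p = 0.0011) and 0.72 ± 0.17 after GSH (adjusted p = 0.046). After Glu it was 0.14 ± 0.16 (adjusted p = 0.62), which did not pass. The GSH call was lost whichever of the 6 libraries was left out (adjusted p between 0.055 and 0.15). *ERF109* overlaps AT4G08985 and AT4G34412 on the opposite strand, and the sources do not say whether counting used strand. The other 3 members of group X, *ERF112*, *ERF115* and the tissue-repair factor *RAP2.6L*, were not expressed, although *RAP2.6L* measured 0.57, 0.71 and 0.97 FPKM after wounding against 0 in the wounding mock libraries.

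Group VIII, the repressors with an EAR motif, changed in 1 member. *ERF4* (AT3G15210), a repressor of jasmonate and ethylene responses, measured 83.3, 59.3 and 63.7 FPKM after wounding against 7.83, 9.90 and 7.64 FPKM in the wounding mock. Its mean rose 8.13-fold, and the groups were far apart. The log2 fold change was 2.88 ± 0.16 (adjusted p = 2e-05). *ERF4* measured 7.90, 14.5 and 15.2 FPKM in the mock, 15.7, 17.8 and 14.0 FPKM after GSH and 19.4, 15.2 and 19.7 FPKM after Glu, and neither comparison with the mock passed (log2 fold change 0.36 ± 0.21, adjusted p = 0.38, and 0.54 ± 0.21, adjusted p = 0.15).

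The other expressed repressors stayed within narrower limits. *ERF3* (AT1G50640) measured between 14.4 and 23.5 FPKM, *ERF7* (AT3G20310) between 9.12 and 13.5 FPKM and *ERF8* (AT1G53170) between 3.55 and 10.8 FPKM over all 15 libraries. None of the 3 passed after any treatment. Their log2 fold changes lay between -0.49, for *ERF8* after wounding, and 0.37, for *ERF3* after wounding. *ERF11* and *ERF12*, which adjoin each other on chromosome 1, were not expressed, with up to 0.89 FPKM for *ERF11* in a wounding library.

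Group IX contained 2 of the 3 DEGs after GSH, and *ERF107* (AT5G61590), which fell after wounding. *ERF1A* (AT4G17500) and *ERF2* (AT5G47220) are activators of GCC-box genes, and *ERF2* is known to raise jasmonate-responsive defence genes. *ERF1A* measured 2.99, 1.97 and 3.75 FPKM in the mock, 11.1, 7.67 and 9.23 FPKM after GSH and 6.29, 6.40 and 6.50 FPKM after Glu. In the wounding mock it measured 2.2, 3.57 and 3.31 FPKM, and after wounding 10.0, 9.73 and 8.05 FPKM. Each treated group lay above its control without overlap, and the means after GSH (9.33 ± 1.72 FPKM, SD) and wounding (9.27 ± 1.08 FPKM) were close to each other.

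*ERF2* was likewise above its control after each treatment. It measured 3.45, 2.19 and 4.18 FPKM in the mock, 11.8, 9.77 and 10.2 FPKM after GSH and 8.02, 6.83 and 5.76 FPKM after Glu. It measured 1.44, 2.66 and 2.80 FPKM in the wounding mock and 11.4, 12.8 and 10.4 FPKM after wounding. No treated library overlapped its control group.

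The log2 fold changes of *ERF1A* were 1.42 ± 0.19 after GSH (adjusted p = 0.0048), 0.95 ± 0.16 after Glu (adjusted p = 0.0093) and 1.36 ± 0.18 after wounding (adjusted p = 0.0017). Those of *ERF2* were 1.47 ± 0.17 (adjusted p = 0.0029), 0.90 ± 0.18 (adjusted p = 0.019) and 1.95 ± 0.20 (adjusted p = 5e-04). In FPKM the means of *ERF1A* and *ERF2* were 3.21-fold and 3.24-fold higher after GSH, 2.2-fold and 2.1-fold higher after Glu, and 3.07-fold and 5.02-fold higher after wounding. The GSH and wounding calls of both genes held without each library in turn, while the Glu call of *ERF2* was lost without mock replicate 1 or Glu replicate 1 (adjusted p = 0.057 and 0.087). With no filter on low genes, the GSH calls (adjusted p = 0.064 and 0.051) and the Glu calls (0.052 and 0.084) missed the threshold.

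*ERF13* (AT2G44840), known for restraining lateral root emergence, was higher in the wounded libraries than in any other. It measured 7.69, 5.84 and 7.08 FPKM after wounding against 0.68, 0.020 and 0 FPKM in the wounding mock. After GSH it measured 1.98, 0.54 and 0.90 FPKM, after Glu 0.69, 0.23 and 0.80 FPKM, and in the mock 0.22, 0.20 and 0.12 FPKM. GSH and Glu libraries were all above the mock libraries, but by little.

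In the fit, *ERF13* gave a log2 fold change of 2.71 ± 0.24 after wounding (adjusted p = 0.00022), 0.81 ± 0.24 after GSH (adjusted p = 0.10) and 0.40 ± 0.19 after Glu (adjusted p = 0.22). The wounding call held without each library in turn.

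*ERF107*, also called *DEWAX*, is known as a repressor of cuticular wax synthesis. It measured 4.16, 3.29 and 3.21 FPKM after wounding against 14.7, 17.3 and 12.3 FPKM in the wounding mock, a 4.15-fold lower mean. It measured 15.2, 15.8 and 15.9 FPKM after Glu against 7.84, 6.66 and 10.3 FPKM in the mock, and 16.2, 9.60 and 8.12 FPKM after GSH. Wounded and Glu libraries lay entirely on opposite sides of their controls, and GSH overlapped the mock.

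For *ERF107* these differences gave log2 fold changes of -1.78 ± 0.16 after wounding (adjusted p = 0.00027), 0.86 ± 0.13 after Glu (adjusted p = 0.0064) and 0.37 ± 0.23 after GSH (adjusted p = 0.41). Its levels differed between the mock and wounding mock groups more than those of any other member tested. The mock mean was 8.28 ± 1.88 FPKM (SD) and the wounding mock mean 14.7 ± 2.5 FPKM. The 2 groups did not overlap (log2 difference -0.77 ± 0.19, unadjusted p = 0.0041, adjusted p = 0.36, limma). Against the wounding mock, the Glu difference was 0.09 (adjusted p = 0.73) and was no longer a call. Against the mock, wounding remained lower by a log2 value of -1.01 (adjusted p = 0.00086).

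**Figure D3:**
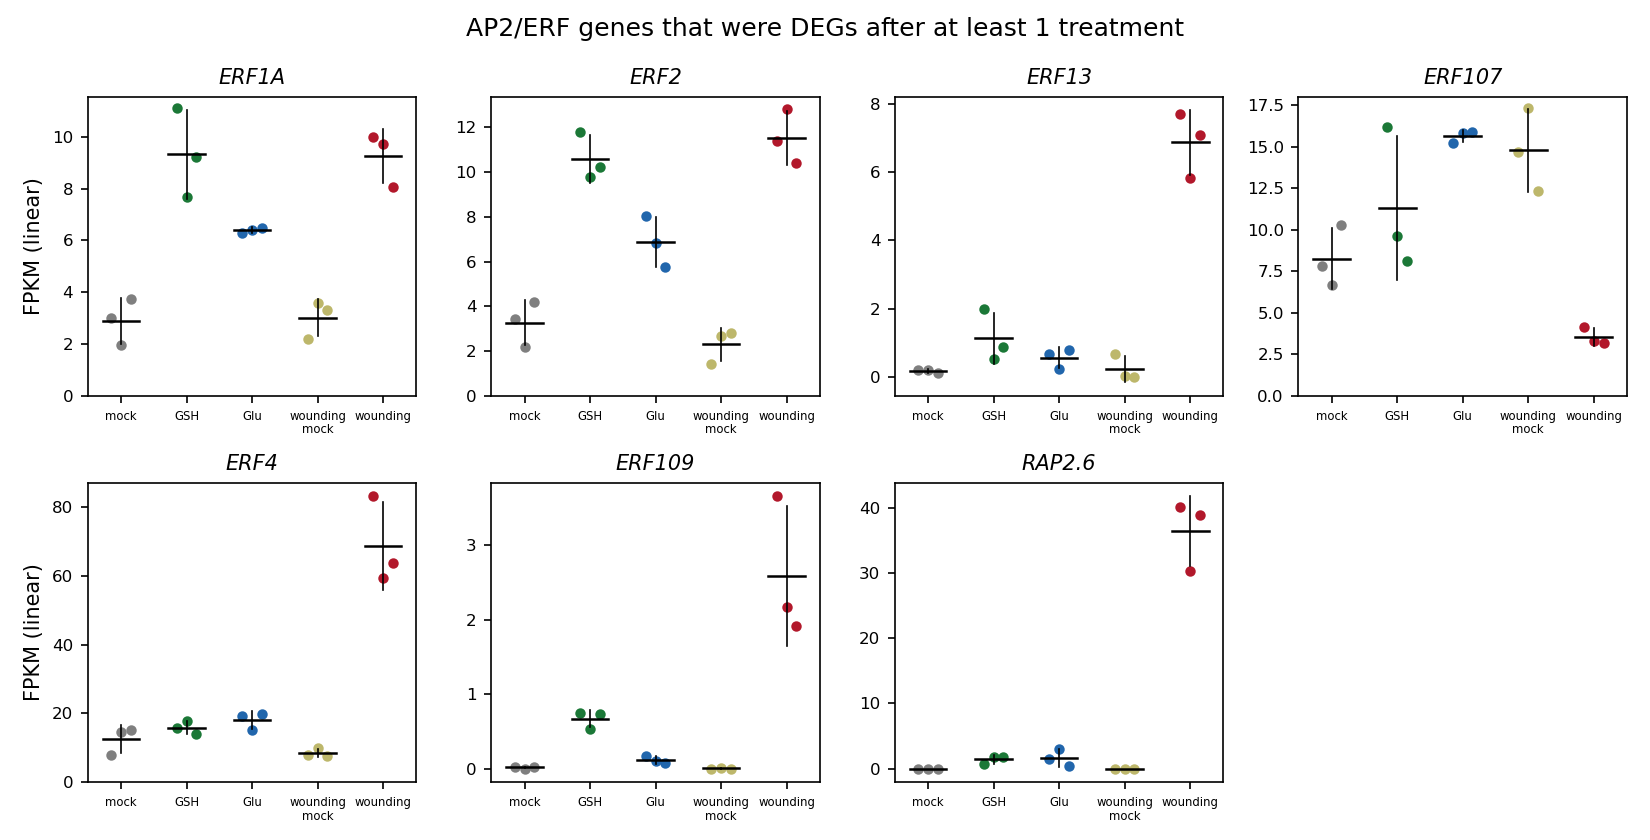
FPKM (linear vertical axis, scaled for each gene) of the 7 AP2/ERF genes that were DEGs after at least 1 treatment, with a point for each library, a bar for the group mean and a line for the SD (n = 3). *RAP2.6*, *ERF4*, *ERF13* and *ERF109* are highest in the 3 wounding libraries, *ERF1A* and *ERF2* are raised in all 3 treated groups, and *ERF107* is lowest after wounding.

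Close neighbours of 3 of these members on the chromosome did not pass the test. *ERF6* (AT4G17490) and *ERF1A* are adjacent on chromosome 4 with 5041 bases between them, *ERF107* and *ERF104* (AT5G61600) are adjacent on chromosome 5 with 832 bases between them, and *ERF2* and *ERF5* (AT5G47230) lie 6924 bases apart on chromosome 5 with 1 other protein-coding gene between them. *ERF5* and *ERF6* are known from responses to chitin and osmotic stress, and *ERF104* as a MAP kinase substrate in the response to bacterial flagellin.

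*ERF6* measured between 1.08 and 1.32 FPKM in the mock, 1.25 and 1.65 FPKM after GSH, 1.05 and 3.69 FPKM after Glu, 0.77 and 1.88 FPKM in the wounding mock and 0.69 and 0.86 FPKM after wounding. *ERF5* did not exceed 1.16 FPKM and *ERF104* did not exceed 2.77 FPKM in any library. None of the 3 passed after any treatment, with log2 fold changes between -0.39 and 0.56 for *ERF6*, -0.07 and 0.09 for *ERF5* and -0.38 and 0.25 for *ERF104*. The difference between the members of a pair was not tested.

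**Figure D4:**
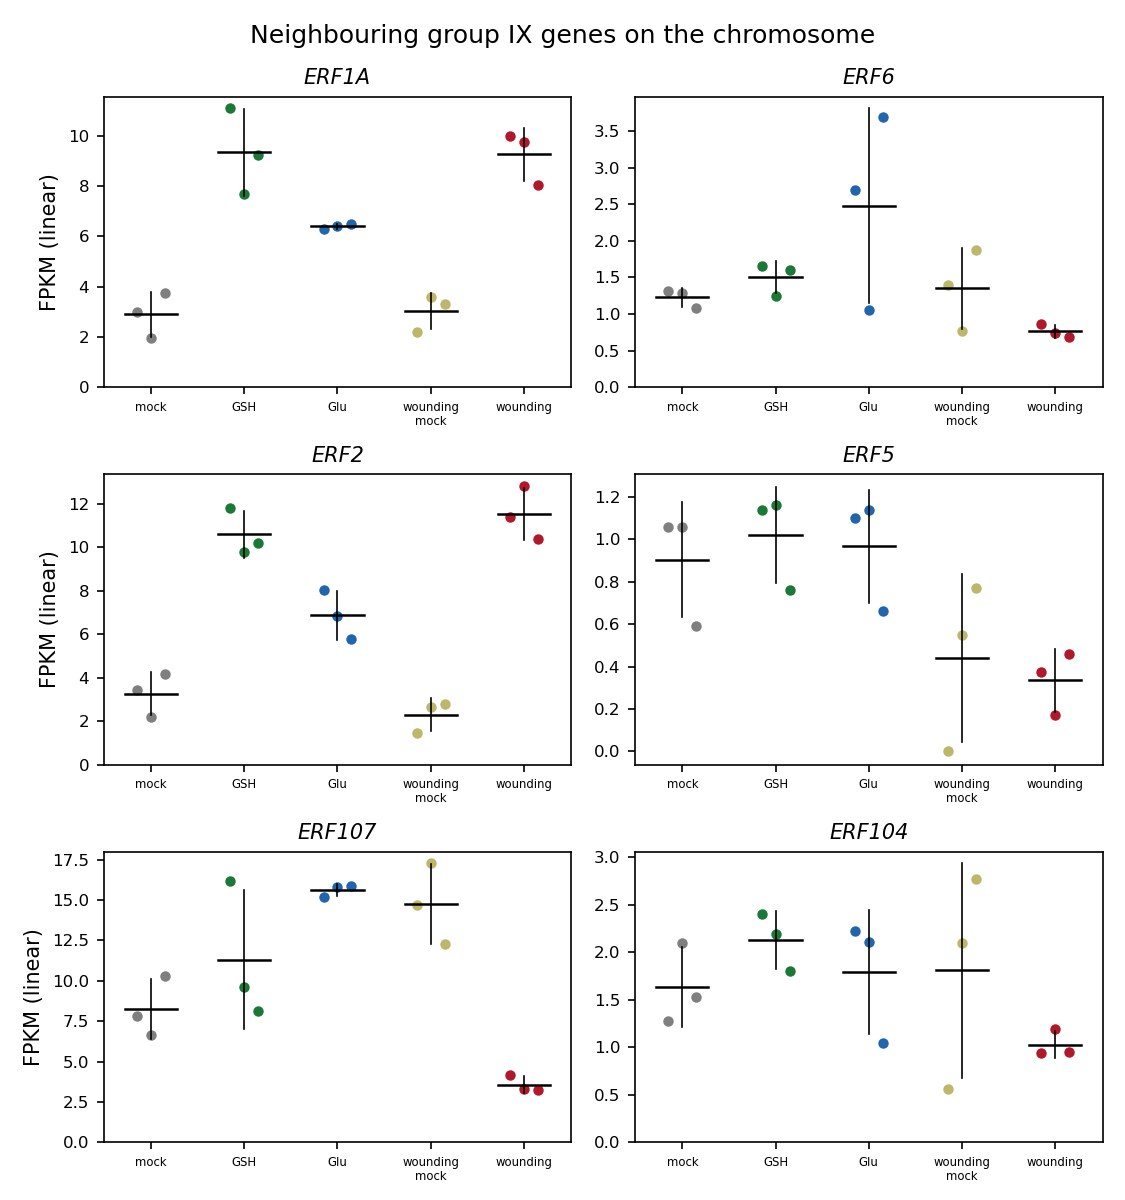
FPKM (linear vertical axis, scaled for each gene) of 3 pairs of group IX genes that lie close together on a chromosome, 1 pair to a row, with points for libraries, bars for group means and lines for the SD (n = 3). *ERF1A*, *ERF2* and *ERF107* on the left change after treatment, while *ERF6*, *ERF5* and *ERF104* on the right did not pass the test in any comparison and stayed at or below 3.69 FPKM.

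The remaining group IX members were not expressed. *ORA59* and *ERF1*, which join the ethylene and jasmonate pathways at defensin genes, did not exceed 0.42 and 0.35 FPKM. *ERF95*, *ERF98* and *ERF1* lie next to each other on chromosome 3, and *ERF98* exceeded 1 FPKM in a single Glu library, at 1.64 FPKM. *ERF105* did not exceed 0.038 FPKM.

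Of the 4 expressed DREB members, *CBF3* (AT4G25480) and *DREB2A* (AT5G05410) rose after wounding, and *ORA47* (AT1G74930) and *TINY2* (AT5G11590) passed after both molecules. *CBF3*, a DREB1 factor of the cold response, measured 21.2, 17.1 and 18.3 FPKM after wounding against 8.09, 12.6 and 11 FPKM in the wounding mock. The wounded libraries were all higher. It measured 9.54, 9.76 and 12.1 FPKM in the mock, 8.38, 8.26 and 8.35 FPKM after GSH and 11.6, 10.8 and 11.2 FPKM after Glu.

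The log2 fold change of *CBF3* was 0.80 ± 0.17 after wounding (adjusted p = 0.017), -0.29 ± 0.11 after GSH (adjusted p = 0.17) and 0.10 ± 0.10 after Glu (adjusted p = 0.59). The wounding call was lost without wounding replicate 1 (adjusted p = 0.082) or 3 (0.070). *CBF3* lies between *CBF2* and *CBF1* in a cluster on chromosome 4, and reads of these close paralogues may have been shared among them, while AT4G07385 overlaps *CBF3* on the other strand. *CBF1* and *CBF2* did not exceed 1.14 and 1.36 FPKM.

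*DREB2A*, a factor of drought and heat responses, measured 7.17, 6.13 and 6.72 FPKM after wounding against 2.47, 3.34 and 2.75 FPKM in the wounding mock. It measured 6.25, 7.64 and 6.27 FPKM after Glu, 3.16, 6.95 and 5.41 FPKM after GSH and 4.50, 3.56 and 5.16 FPKM in the mock. Wounding and Glu libraries were above their controls without overlap, and GSH libraries straddled the mock.

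After wounding, *DREB2A* had a log2 fold change of 0.998 ± 0.15 (adjusted p = 0.0029), which was just under the DEG threshold. Its untreated groups did not overlap, and with the mock as control the wounding value was 0.51 (adjusted p = 0.012), while with the wounding mock as control the Glu value was 1.00 (adjusted p = 0.013). Each against its own control, it was 0.52 ± 0.13 after Glu (adjusted p = 0.044) and 0.15 ± 0.22 after GSH (adjusted p = 0.76). The Glu call was lost (adjusted p between 0.058 and 0.14) when mock replicate 1 or 2 or a Glu library, whichever it was, was left out. AT5G05420 overlaps *DREB2A* on the other strand.

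*ORA47*, an activator of jasmonate synthesis genes, measured 2.34, 2.44 and 1.87 FPKM after GSH and 2.75, 3.38 and 2.08 FPKM after Glu against 0.86, 1.03 and 1.3 FPKM in the mock. After wounding it measured 1.31, 1.40 and 1.26 FPKM, inside the range of 0, 1.84 and 1.04 FPKM in the wounding mock. GSH and Glu libraries were all above the mock, and wounded libraries overlapped their control.

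*ORA47* had a log2 fold change of 0.64 ± 0.15 after GSH (adjusted p = 0.047), 0.85 ± 0.16 after Glu (adjusted p = 0.015) and 0.37 ± 0.36 after wounding (adjusted p = 0.55). The GSH call was lost whichever of the 6 libraries was left out (adjusted p between 0.059 and 0.15), and the Glu call was lost without mock replicate 1 or 2 or Glu replicate 1 (0.055 to 0.069). AT1G74929 overlaps *ORA47* on the other strand.

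*TINY2*, which binds the dehydration-responsive element, was the single member to fall after GSH and Glu. It measured 4.57, 5.69 and 4.40 FPKM in the mock, 2.34, 3.10 and 2.53 FPKM after GSH and 3.22, 3.54 and 3.17 FPKM after Glu. In the wounding mock it measured 3.96, 2.91 and 4.44 FPKM and after wounding 5.40, 5.22 and 4.38 FPKM. GSH and Glu libraries were below every mock library, and wounded libraries overlapped their control.

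*TINY2* had a log2 fold change of -0.69 ± 0.14 after GSH (adjusted p = 0.027), -0.45 ± 0.12 after Glu (adjusted p = 0.046) and 0.34 ± 0.17 after wounding (adjusted p = 0.22). Against the wounding mock, the GSH and Glu differences were -0.37 (adjusted p = 0.34) and -0.13 (adjusted p = 0.67). The GSH call was lost when a single mock library, whichever it was, or GSH replicate 3 was left out (0.057 to 0.12), and the Glu call when mock replicate 1 or 2 or a single Glu library was left out (0.076 to 0.16).

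RAV genes rose after Glu and did not pass after wounding. *TEM1* (AT1G25560) and *TEM2* (AT1G68840) are repressors of flowering, and *RAV1* (AT1G13260) restrains growth and promotes leaf senescence. *TEM1* measured 6.62, 6.18 and 7.29 FPKM after Glu and 4.59, 9.39 and 6.57 FPKM after GSH against 2.77, 3.13 and 4.19 FPKM in the mock. *TEM2* measured 2.11, 1.83 and 1.83 FPKM after Glu and 1.78, 2.33 and 1.51 FPKM after GSH against 0.46, 0.65 and 0.92 FPKM in the mock. Both genes were above the mock in all 6 treated libraries. *TEM2* passed the expression filter only with the GSH and Glu libraries, so its calls are not independent of its level there.

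*RAV1* measured 3.80, 4.03 and 3.62 FPKM after Glu, 1.89, 4.20 and 2.92 FPKM after GSH and 2.17, 1.92 and 1.53 FPKM in the mock, so that Glu lay above the mock and GSH overlapped it. After wounding, *TEM1* lay between 3.59 and 4.72 FPKM, *RAV1* between 1.41 and 2.58 FPKM and *TEM2* between 0.22 and 0.48 FPKM. The wounding mock ranges were 1.71 to 4.10 FPKM, 1.18 to 3.44 FPKM and 0.60 to 1.34 FPKM, so *TEM2* was below its control in every wounded library while *TEM1* and *RAV1* overlapped theirs.

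The Glu log2 fold changes were 0.83 ± 0.14 for *TEM1* (adjusted p = 0.0076), 0.75 ± 0.12 for *RAV1* (adjusted p = 0.0078) and 0.81 ± 0.15 for *TEM2* (adjusted p = 0.012). After GSH, *TEM2* passed at 0.78 ± 0.17 (adjusted p = 0.040), and *TEM1* at 0.82 ± 0.22 (adjusted p = 0.074) and *RAV1* at 0.44 ± 0.21 (adjusted p = 0.28) did not. The GSH call of *TEM2* was lost (0.059 to 0.14) when a single mock library, whichever it was, or GSH replicate 2 or 3 was left out, and its Glu call without Glu replicate 1 (0.066). After wounding the values were 0.35 ± 0.25, -0.07 ± 0.29 and -0.41 ± 0.21 for *TEM1*, *RAV1* and *TEM2*, with adjusted p of 0.41, 0.91 and 0.24. Against the wounding mock, none of the 3 Glu calls held (adjusted p = 0.060 for *TEM1*, 0.18 for *RAV1* and 0.097 for *TEM2*).

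Group VII genes, abundant throughout, changed little. *RAP2.12* (AT1G53910), whose protein is released from the plasma membrane at low oxygen, measured 36.5, 35.7 and 36.9 FPKM after Glu against 31.2, 28 and 30.1 FPKM in the mock, with no overlap. The log2 fold change was 0.28 ± 0.07 (adjusted p = 0.041), and the call was lost whichever of the 6 libraries was left out (adjusted p between 0.058 and 0.16). *RAP2.2* (AT3G14230) differed by 0.32 ± 0.09 after GSH (adjusted p = 0.076) and 0.27 ± 0.09 after Glu (adjusted p = 0.082), and *RAP2.3* (AT3G16770) by between -0.12 and 0.18 over the 3 treatments, and neither passed.

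**Figure D5:**
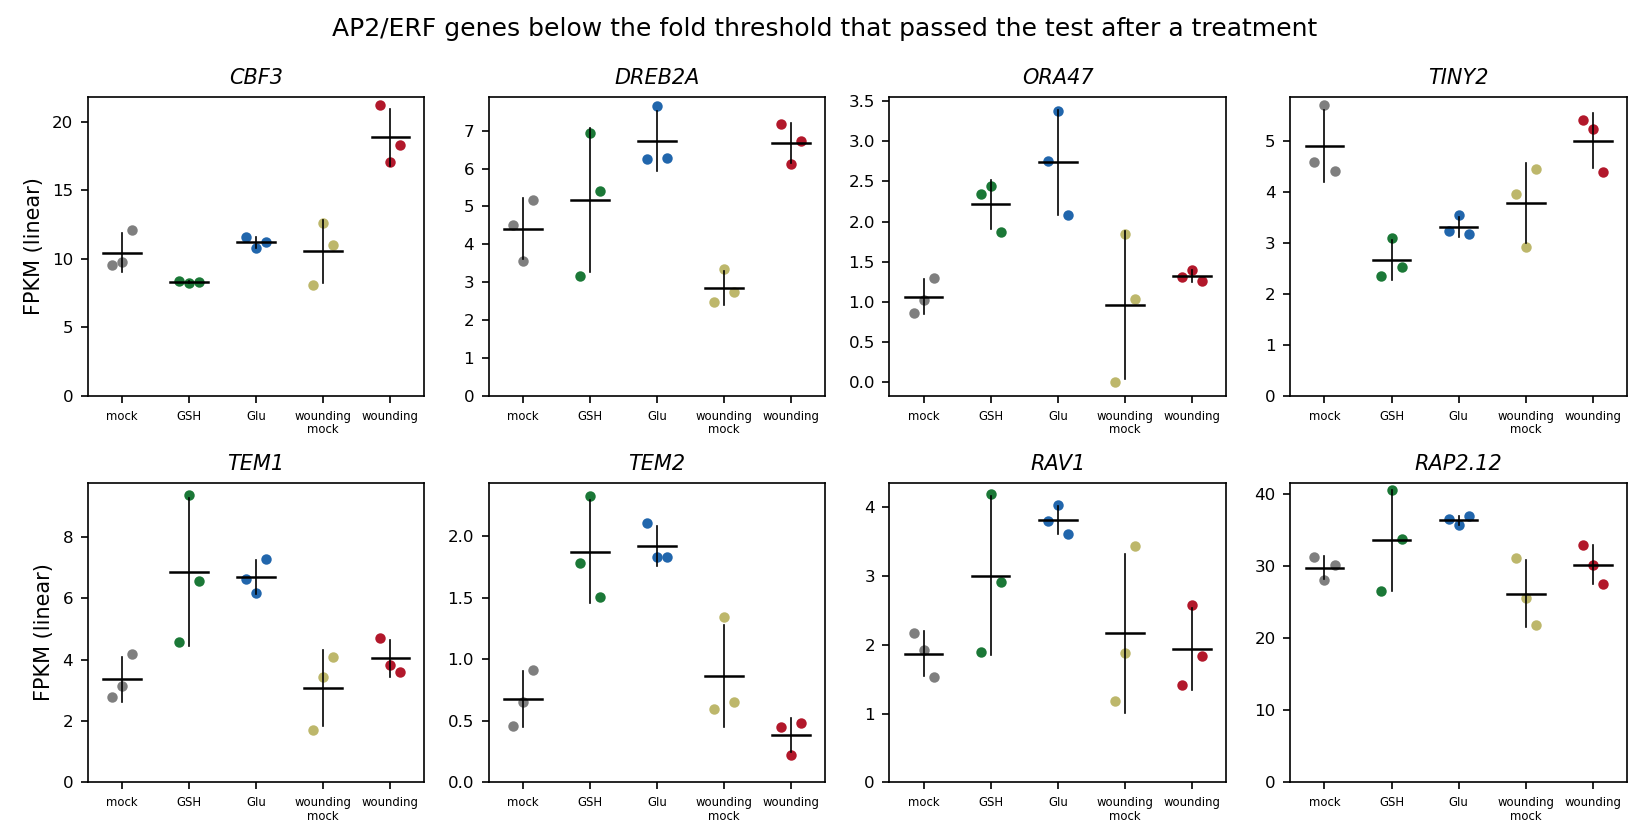
FPKM (linear vertical axis, scaled for each gene) of the 8 AP2/ERF genes that passed the test after at least 1 treatment without being DEGs, with a point for each library, a bar for the group mean and a line for the SD (n = 3). *CBF3* and *DREB2A* are raised after wounding, *TINY2* is lower after GSH and Glu than in the mock, and *ORA47*, *TEM1*, *TEM2* and *RAV1* are raised after Glu.

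Whether GSH and Glu differed was asked directly between their 6 libraries, without the mock. No member of 23 passed with limma, where 0.0740% of all genes tested did, and 5 members had an unadjusted p under 0.05, where 8.75% of all genes tested did. *ERF1A*, *ERF2* and *ERF109* were higher after GSH in all libraries, by log2 values of 0.47 ± 0.13 (adjusted p = 0.37), 0.57 ± 0.13 (adjusted p = 0.27) and 0.58 ± 0.16 (adjusted p = 0.37). *CBF3* was lower after GSH in all libraries (-0.39 ± 0.09, adjusted p = 0.27), and *ERF107* differed by -0.49 ± 0.21 with overlap (adjusted p = 0.56). For *RAP2.6* the difference was -0.02 ± 0.37. GSH and Glu libraries did not overlap for 21.7% of the members, where 14.5% of all genes tested did not. These values do not show that the 2 molecules act alike.

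The untreated groups were compared to see how far untreated leaves differed. The labels name no experiment or batch for either group. No member of 22 passed with limma, where 0.222% of all genes tested did, and 2 had an unadjusted p under 0.05, which were *ERF107* and *DREB2A*, where 6.00% of all genes tested did. *DREB2A* was higher in the mock by a log2 value of 0.48 ± 0.17 (adjusted p = 0.74). The untreated groups did not overlap for 9.09% of the members, where 13.4% of all genes tested did not. *RAP2.6*, at 0 in both groups, could not be tested. Against the wounding mock, the GSH calls of *TEM2*, *ORA47* and *ERF109* (adjusted p = 0.19, 0.27 and 0.099) and the Glu calls of *RAP2.6*, *RAP2.12* and *ORA47* (adjusted p = 0.089, 0.094 and 0.15) were also lost.

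Differences between the effect of a molecule and the effect of wounding were tested as an interaction, each treatment with its own control. For GSH, 8 members differed at an adjusted p under 0.05, where 13.4% of all genes tested did. For Glu, 9 members differed, where 15.1% of all genes tested did. The effect of wounding was the higher in *RAP2.6* (log2 difference -3.98 ± 0.27 for GSH and -3.96 ± 0.41 for Glu), *ERF4* (-2.52 ± 0.30 and -2.34 ± 0.30), *ERF13* (-1.91 ± 0.36 and -2.32 ± 0.31) and *ERF109* (-1.09 ± 0.25 and -1.67 ± 0.25). *ERF13* and *ERF109* were tested only because the wounding libraries took them past the expression filter, so the direction of their differences is a description. The effect of wounding was the lower in *ERF107* (2.16 ± 0.32 and 2.65 ± 0.22) and *TEM2* (1.19 ± 0.27 and 1.22 ± 0.25). *TEM2* reached 1 FPKM in 3 GSH, 3 Glu and 1 wounding mock library, and in 0 mock and 0 wounding libraries. It thus passed the filter only with the groups where it was high, so its direction is a description too. For the other RAV genes the Glu differences, 0.48 ± 0.30 for *TEM1* (adjusted p = 0.35) and 0.82 ± 0.32 for *RAV1* (adjusted p = 0.13), did not pass. With 0.1 FPKM added in place of 1, the GSH differences of *ERF13* and *ERF109* missed the threshold (adjusted p = 0.063 and 0.095).

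*ERF1A*, raised after all 3 treatments, differed by 0.05 ± 0.28 between GSH and wounding (adjusted p = 0.94) and by -0.42 ± 0.25 between Glu and wounding (adjusted p = 0.34). *ERF2* differed by -0.48 ± 0.28 for GSH (adjusted p = 0.31) and by -1.05 ± 0.29 for Glu (adjusted p = 0.029). The Glu value of *ERF2* missed the threshold (adjusted p between 0.059 and 0.075) without mock replicate 1 or 3, Glu replicate 2 or 3, or wounding replicate 1 or 2. *CBF3* and *TINY2* also differed, with the higher effect after wounding (-1.09 ± 0.21 and -1.03 ± 0.22 for GSH, -0.70 ± 0.21 and -0.79 ± 0.20 for Glu). The Glu value of *CBF3* missed the threshold (0.053 to 0.11) when a single mock or Glu library, whichever it was, or wounding replicate 1 or 3 was left out, and that of *TINY2* (0.052 to 0.059) when mock replicate 2, Glu replicate 1 or wounding replicate 1 was.

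Genes that act around these factors gave a mixed picture. Of 8 upstream and partner genes, *MYC2*, the bHLH regulator of jasmonate responses, was a DEG after wounding, at 18.1, 25.0 and 20.9 FPKM against 0, 0.46 and 0 FPKM in the wounding mock (log2 fold change 4.29 ± 0.20, adjusted p = 8.5e-06). After GSH *MYC2* measured 5.42, 2.03 and 16.8 FPKM, after Glu 3.41, 3.09 and 0 FPKM and in the mock 3.99, 0 and 0.67 FPKM, a spread in which neither comparison passed. *EIN3*, the transcription factor of ethylene signalling, rose after GSH (0.41 ± 0.09, adjusted p = 0.036) and Glu (0.45 ± 0.07, adjusted p = 0.0075). *CAMTA3*, a calmodulin-binding factor upstream of CBF genes, rose after Glu (0.34 ± 0.08, adjusted p = 0.037), and *EIL1*, a relative of *EIN3*, fell after wounding (-0.91 ± 0.12, adjusted p = 0.0019).

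Of the known targets tested, a few passed, all of them after wounding. Of 8 cold and dehydration genes bound by DREB factors, 0 passed after GSH or Glu, where 4.45% and 9.64% of all genes tested did. An unadjusted p under 0.05 (limma) was reached by 1 and 1 of them, and by 3563 of 17571 and 4651 of 17566 genes tested. After wounding 37.5% of the 8 passed, where 18.6% of all genes tested did. After wounding *KIN2* rose by a log2 value of 0.52 ± 0.14 (adjusted p = 0.044), and *RD29A* (-0.80 ± 0.19, adjusted p = 0.022) and *GOLS3* (-1.11 ± 0.22, adjusted p = 0.011) fell, while *CBF3* and *DREB2A* were higher. Of 8 hypoxia genes downstream of group VII, *ADH1* and *HRA1* were expressed, and of 5 defence genes downstream of *ORA59* and *ERF1*, *PR4* and *CHI-B* were expressed. None of these 4 passed after any treatment.

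Some clock genes and cell markers also passed after wounding, as did 18.6% of all genes tested, and their part in the results was not tested. Of 8 core clock genes 6 were tested. None passed after GSH or Glu. An unadjusted p under 0.05 (limma) was reached by 3 of the 6 after GSH and by 0 after Glu. Over all genes tested, 3563 of 17571 and 4651 of 17566 reached it. The 3 were *PRR7* (-0.27 ± 0.09), *PRR5* (-0.32 ± 0.11) and *GI* (-0.24 ± 0.09), each lower after GSH. *CCA1* (-0.74 ± 0.19), *PRR5* (-0.42 ± 0.11) and *GI* (-0.84 ± 0.10) fell after wounding, where 10.3% of all genes tested fell. *PRR7*, *TOC1* and *ELF4* did not pass. Of 5 mesophyll markers, *LHCB2.1* (-2.36 ± 0.11) and *LHCB1.3* (-0.53 ± 0.15) fell after wounding. *RBCS1A*, *RBCS2B* and *CA1* did not pass (limma, adjusted p = 0.32, 0.74 and 0.94), nor did the guard cell marker *KAT1* (0.63). Of 3 phloem and guard cell markers, *SUC2* fell (-0.60 ± 0.11) and *FAMA* rose (0.53 ± 0.12) after wounding, and *FAMA* rose after Glu (0.53 ± 0.12).

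The genes whose pattern was most like that of *RAP2.6* were found by Pearson correlation of log2(FPKM + 1) over the 15 libraries, which share the 5 groups. They were AT5G10625 (r = 0.9925), AT5G28237 (r = 0.9907), AT5G26600 (r = 0.9892), SERAT1;1 (r = 0.9864), a serine acetyltransferase, and ACX1 (r = 0.9859), an acyl-CoA oxidase of jasmonate synthesis. With 3 wounding libraries far above the rest, such values rest mainly on that group.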

How the data were processed

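RNA-seq was done on leaf 6 in 15 libraries. Per the methods and the labels, the authors trimmed paired-end reads with Cutadapt and Trimmomatic, mapped them with HISAT2 (build TAIR10) and quantified genes with StringTie. The deposited table is named as raw counts but holds FPKM values, scaled by the authors for transcript length and mapped fragments, so depth is unknown and no count test was run. DESeq2 1.16.1, named in the notes, was not used here.

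Groups were compared with limma 3.58.1 in R 4.3.3 on log2(FPKM + 1), with a variance trend, no further scaling and only the libraries of the comparison. Genes needed 1 FPKM or more in 3 or more of the 15 libraries and a value above 0 in a library compared. Members rose or fell at an adjusted p under 0.05, and DEGs also had an absolute log2 fold change above 1. Adding 1 FPKM understates the change of low genes. The fit was tested on simulated data. Alternatives changed the pseudocount, filter, threshold, scaling, control, libraries and use of replicate numbers.

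Named were all members, with every library's value for those that were DEGs. Other members that passed the test were given by library values or ranges, and DEGs of the pathway lists by log2 fold changes. Members and lists were chosen with earlier results of these data known. Gene positions and windows of 250 bases came from RefSeq TAIR10.1, in which 99.1% of gene IDs and all 38 members were found.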

Additional observations from a re-analysis of the deposited data

Results flagged for a closer look

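These results drew attention because the effect of a molecule and the effect of wounding, each against its own control, differed in a test of the difference itself (limma, adjusted over all genes tested). For GSH minus wounding, the log2 differences were -1.09 for *CBF3* (adjusted p = 0.004), -1.03 for *TINY2* (0.0072), -1.91 for *ERF13* (0.0033), 2.16 for *ERF107* (0.00057), -2.52 for *ERF4* (0.00011), -1.09 for *ERF109* (0.013), -3.98 for *RAP2.6* (9.2e-07) and 1.19 for *TEM2* (0.011). For Glu minus wounding, they were -0.70 for *CBF3* (adjusted p = 0.04), -0.79 for *TINY2* (0.02), -1.05 for *ERF2* (0.029), -2.32 for *ERF13* (0.00022), 2.65 for *ERF107* (4.8e-06), -2.34 for *ERF4* (0.00019), -1.67 for *ERF109* (0.00055), -3.96 for *RAP2.6* (2.8e-05) and 1.22 for *TEM2* (0.0054). The numbers in brackets are adjusted p values, and a negative value means a higher effect of wounding.

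*RAP2.6*, *ERF4*, *ERF13* and *ERF109* had the higher effect after wounding against both molecules, and *ERF107* and *TEM2* the lower. *ERF13* and *ERF109* reached the expression filter only through the wounding libraries, so their direction is a description and supports nothing. *TEM2* reached it only with the GSH and Glu libraries, and the same holds for its direction. *RAP2.6* reached it only through treated libraries. The 2 differences share the wounding and wounding mock libraries and, through the mock, their controls, so they do not count as separate evidence. The mock and wounding mock groups did not overlap for *ERF107* (means of 8.28 and 14.7 FPKM) and *DREB2A*, and with the mock as the only control, wounding gave -1.01 for *ERF107* and Glu 0.86. The part of the clock genes that fell with wounding, *GI*, *CCA1* and *PRR5*, in these differences was not tested.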

How the results depend on the processing

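Of 44 calls of single members, 20 held under every alternative run, 24 lost a call under at least 1, and 0 changed sign. The 7 wounding DEGs were 7 to 9 under every alternative, with 7 to 8 when single libraries were left out. The 3 GSH DEGs became 7 with the adjusted p alone, 5 with a pseudocount of 0.1 FPKM and 0 with no filter, where more genes are tested, and 2 to 4 with single libraries left out. The single Glu DEG became 11, 6 and 0 under the same settings, and 0 with a filter over the libraries compared. It became 3 with the other untreated group as control, and 0 to 3 with single libraries left out. Members that differed between GSH and wounding by more than the fold threshold were 6 to 9, and between Glu and wounding 6 to 9, against 8 and 7. GSH against Glu and mock against wounding mock stayed at 0. Of the 7 GSH, 11 Glu and 9 wounding calls at an adjusted p under 0.05, 6, 6 and 0 were lost with no filter. Against the other untreated group 4, 8 and 0 were lost, and with all 15 libraries in 1 fit 1, 6 and 0.

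With the replicate number as a block, the Glu count fell from 1 to 0, and the GSH and wounding counts were 3 and 7 as without it. Deviations of libraries with the same number correlated between -0.152 and 0.195, with no comparison above 0.1 in all pairs, so the numbers were not taken to pair the samples. As FPKM keeps no depth, the precision of members near 1 FPKM, such as *ERF109*, *ORA47* and *TEM2*, is unknown.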
